A study of Homo sapiens with 26 samples.

Results

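Expression of 9 genes tied to the basal-like and mesenchymal states of pancreatic cancer was followed by poly(A) RNA sequencing in 26 libraries of 3 established human cell lines of pancreatic ductal adenocarcinoma, in which the nuclear receptor gene HNF4A had been switched on or repressed. The genes are TP63, GLI2, ZEB1, SNAI2, SIX4, HMGA2, VGLL1, VIM and SPOCK1. The rule names them and sets no threshold on their values, and each was found as the row whose Ensembl identifier carries that symbol, so that they are 9 of 62703 genes in the tables of Panc10.05 and BxPC3 and 9 of 62754 in that of AsPC-1. In Panc10.05 and BxPC3, doxycycline induced the HNF4A isoform P1-a2 or P2-a8, and the control is labelled NC, which the titles call GFP (Panc10.05) or EV (BxPC3). Each of these 6 groups had 2 libraries. All BxPC3 groups, the control included, received 500 ng/mL of doxycycline. In Panc10.05 NC and P1-a2 had a dose of 25 ng/mL and P2-a8 one of 12.5 ng/mL, so there the isoform and its dose changed together. In AsPC-1, CRISPR interference, which blocks transcription at a promoter that a guide RNA directs it to, was aimed at the P1 promoter of HNF4A (group sgP1, guides sgP1E and sgP1J), at the P2 promoter (sgP2, guides sgP2D and sgP2G) or at both (sgDual, guides sgDual2 and sgDual3). The control guide sgNC had 2 libraries, and each targeting guide also had 2, so that a target had 4. Tests of a target took these 4 libraries as replicates, so their p-values do not treat the guide as the unit. Whether the engineered lines are clones or pools, and which promoter drives the induced constructs, is not given in the sources used here. Nor is it given whether libraries of a group came from separate cultures, so p-values measure the spread between these samples, which may be technical.

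Pancreatic ductal tumours are commonly sorted into a classical state, with gut-like epithelial genes under factors such as HNF4A, and a basal-like state, with squamous or mesenchymal genes. The 9 genes mark different parts of the second state. TP63 encodes p63, the master regulator of squamous and basal epithelium. GLI2 is a transcription factor at the end of the Hedgehog pathway. ZEB1 and SNAI2 (Slug) are zinc finger repressors of epithelial genes that drive epithelial-mesenchymal transition (EMT). SIX4 is a homeobox factor that acts with EYA coactivators and that has been described as repressed by HNF4A in this cancer. HMGA2 is an architectural chromatin protein of embryonic and invasive cells. VGLL1 is a cofactor of the TEAD transcription factors. VIM (vimentin) is the intermediate filament of mesenchymal cells, and SPOCK1 encodes testican, a secreted proteoglycan linked to EMT.

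Levels are given in CPM, that is, read counts relative to the size of the library after TMM scaling. A floor of 3 counts corresponded to 0.0641 to 0.0869 CPM in Panc10.05, 0.0811 to 0.112 CPM in BxPC3 and 0.0585 to 0.116 CPM in AsPC-1. Panc10.05 libraries held 34618745 to 46827673 counts, BxPC3 libraries 26369154 to 37483772 and AsPC-1 libraries 26079388 to 50662077. HNF4A itself averaged 0.149 CPM in NC, 11.8 under P1-a2 and 37.6 under P2-a8 in Panc10.05. In BxPC3 it averaged 0.771, 10.7 and 13.4 CPM. In AsPC-1 it averaged 213 CPM with sgNC, 129 with sgP1, 86.5 with sgP2 and 7.99 with sgDual. Against sgNC only sgDual passed (adjusted p 6.25e-06, against 0.615 for sgP1 and 0.0751 for sgP2, edgeR). Yet every library with sgP1 (109 to 146 CPM) or sgP2 (76.7 to 93.9 CPM) was below both with sgNC (206 and 220 CPM). The fit estimates the spread over all groups together, and the sgDual libraries ran from 3.19 to 13.6 CPM. By group mean, the 7 markers of the labelled ductal epithelial type were at or above 1 CPM in every group of every line, although KRT7 was low in AsPC-1, at 1.02 CPM with sgP2 (0.503 CPM in its lowest library). Of 7 fibroblast markers, 1 reached a group mean of 1 CPM in Panc10.05 (COL1A1), 3 in BxPC3 and 1 in AsPC-1 (LUM). Of 5 acinar markers 0 did, with PRSS1 in BxPC3 the nearest at 0.922 CPM in NC (1.08 CPM in its highest library). Of 4 endothelial markers 2 did in BxPC3, where VWF averaged 2.98 to 3.79 CPM and CDH5 4.198 to 4.93 CPM over the groups, and 0 did in the other lines. Of 4 leukocyte markers 1 did, CD68, which averaged 6.52 to 8.94 CPM in Panc10.05, 0.938 to 2.24 CPM in BxPC3 and 3.53 to 4.83 CPM in AsPC-1. The tables were scaled separately, so levels are tested only within a line. In bulk libraries fewer cells that express a gene and less RNA per cell cannot be told apart.

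The lines started from very different levels. Per kilobase of exon, the control libraries of BxPC3 held TP63 highest, at 40.9 CPM per kb, followed by SNAI2 at 25.3, HMGA2 at 22.5, VIM at 8.23 and SIX4 at 7.11 CPM per kb. VGLL1 (1.39), SPOCK1 (0.733) and GLI2 (0.717 CPM per kb) were lower, and ZEB1 was lowest at 0.0254 CPM per kb. In AsPC-1 with sgNC, VIM stood at 737 CPM per kb, HMGA2 at 16.2, SNAI2 at 9.67, ZEB1 at 4.83 and GLI2 at 4.44 CPM per kb, while SIX4 was at 0.91, TP63 at 0.0300 and SPOCK1 and VGLL1 at the floor. In the Panc10.05 control the order ran from SNAI2 (7.98) through SIX4 (5.66), SPOCK1 (2.83), HMGA2 (2.12), ZEB1 (1.2), VIM (0.848) and VGLL1 (0.381) to GLI2 (0.0443) and TP63 (0.0148 CPM per kb). TP63 was therefore abundant in BxPC3 and near the floor in Panc10.05 and AsPC-1, and VIM was abundant in AsPC-1.

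**Figure D1:**
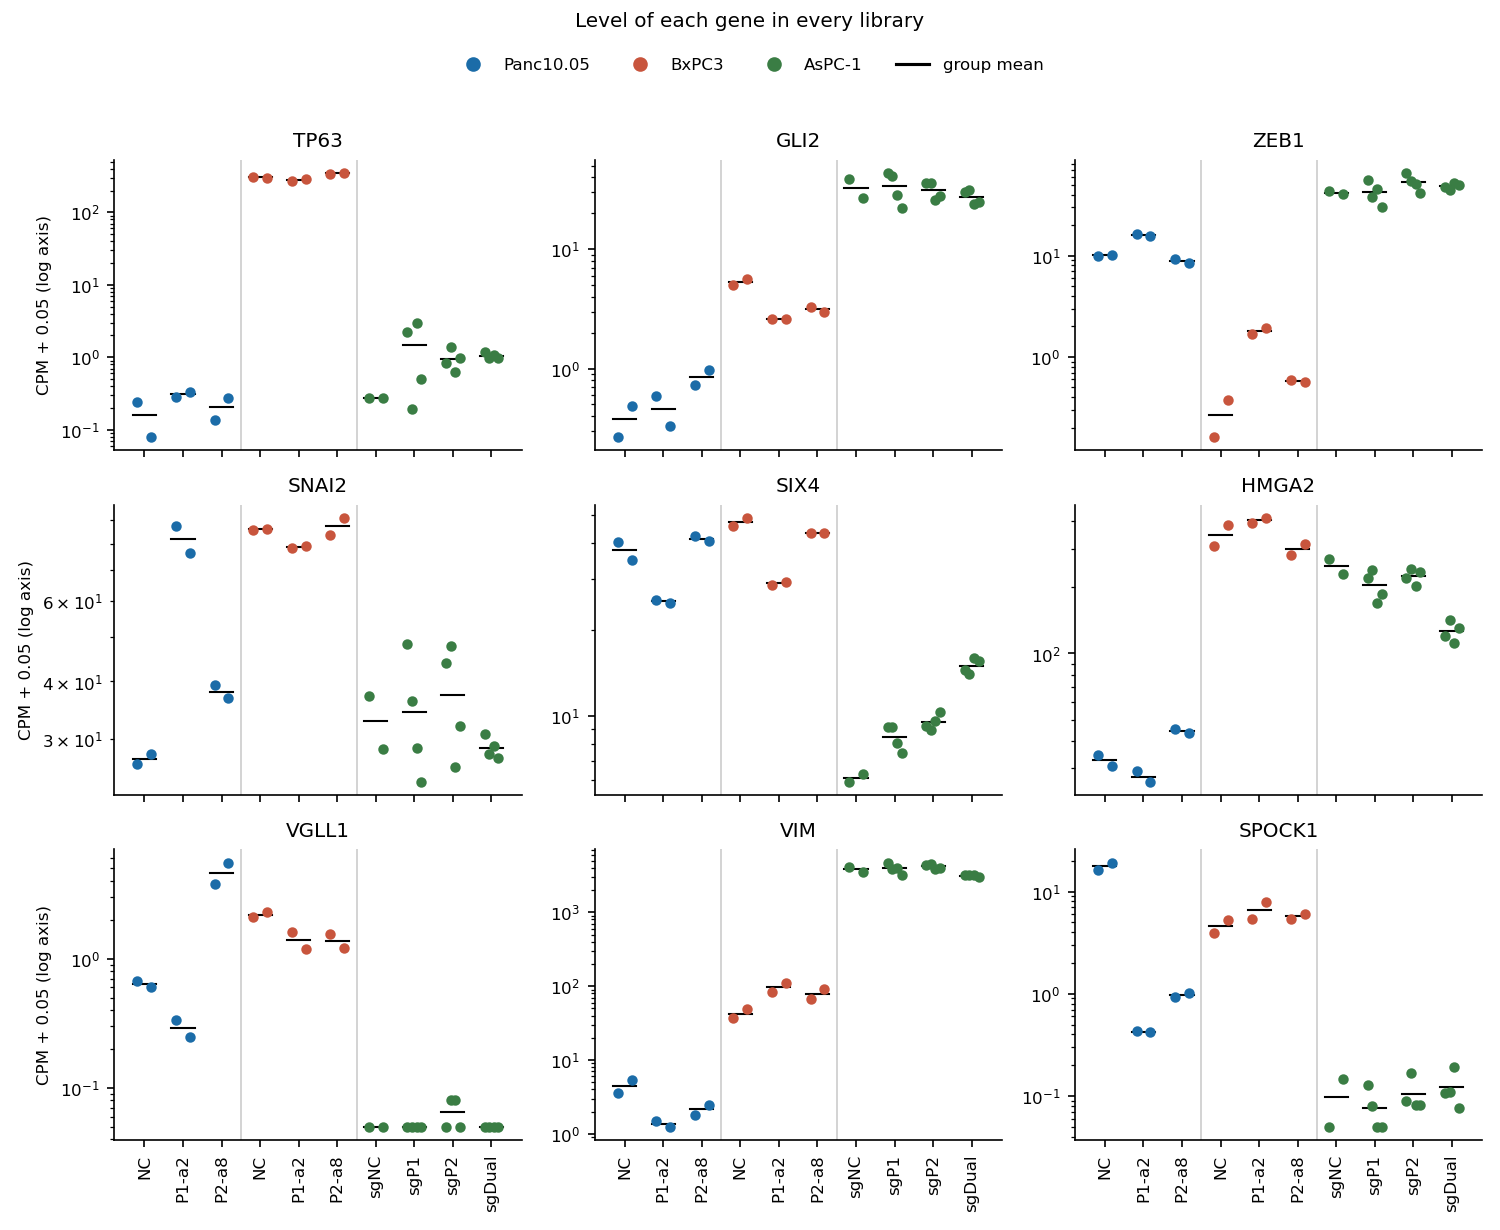
Level of each gene in every library, as CPM plus 0.05 on a log axis, by group (x axis) and line (colour), with the group mean as a black line. TP63 was at 268 CPM or more in the BxPC3 libraries and at 2.92 CPM or less in all others, and SPOCK1 in Panc10.05 lay between 16.2 and 19.1 CPM in NC and below 1 CPM under either isoform.

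Of the 8 genes that passed the filter on low counts in Panc10.05 (TP63 did not), the contrast of P1-a2 with NC called 7 at an adjusted p under 0.05 (2 higher, 5 lower), where 62.0% of all 17247 genes tested were (31.5% higher and 30.5% lower). For P2-a8 against NC 6 of 8 were called, where 46.2% of all genes were, and for P1-a2 against P2-a8 8 of 8, where 46.9% were. In BxPC3 4 of 9 were called for P1-a2 against NC (32.0% of all 17635 genes, 17.1% higher and 14.9% lower), 1 of 9 for P2-a8 against NC (6.99%) and 4 of 9 for P1-a2 against P2-a8 (22.5%). In AsPC-1, where VGLL1 and SPOCK1 did not pass the filter, sgDual against sgNC called 2 of 7 (35.6% of all 16992 genes, 17.8% in each direction). It called 3 of 7 for sgDual against sgP1 (38.3%) and 3 of 7 for sgDual against sgP2 (46.4%). For sgP2 against sgNC 1 of 7 was called, where 3.42% of all genes were. For sgP1 against sgNC edgeR called 0 of 7 (0.265% of all genes), with 3 at an unadjusted p under 0.05 (TP63, SIX4 and HMGA2) and 2 called by DESeq2. For sgP2 against sgP1 edgeR called 0 of 7 (4.30%), with 0 at an unadjusted p under 0.05 and 0 called by DESeq2. With so many genes called in the induced lines and with sgDual, these counts say nothing particular about the 9 genes as a set. The comparisons of both isoforms with NC, and of all 3 targets with sgNC, share the same control libraries.

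**Figure D2:**
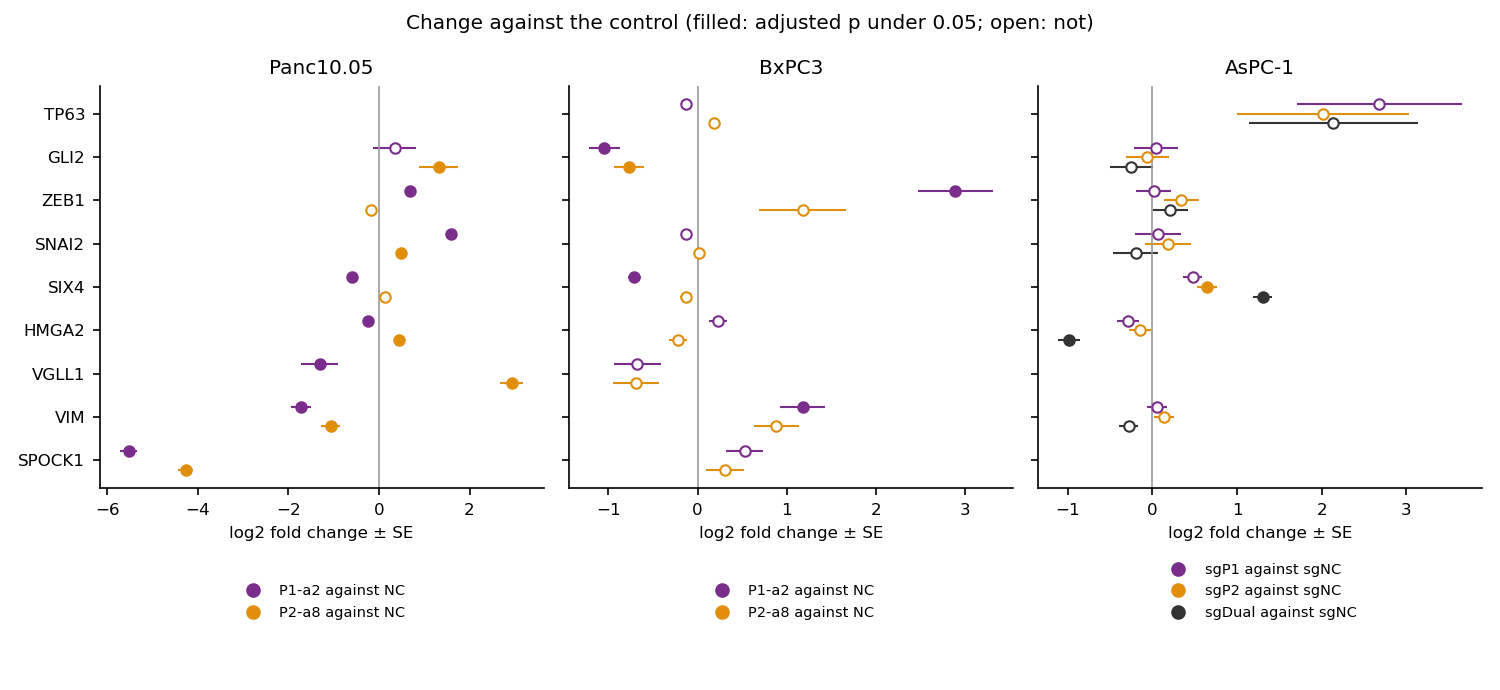
Log2 fold change with its standard error (x axis) of each gene (y axis) against the control of its line, with filled points past an adjusted p of 0.05 and open points not. In Panc10.05 SPOCK1 changed by -5.53 under P1-a2 and -4.27 under P2-a8, and in AsPC-1 SIX4 and HMGA2 moved in opposite directions with sgDual.

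SIX4 was lower where the P1-a2 isoform was induced, in both lines, and higher where HNF4A was repressed through both promoters in AsPC-1. SIX4 (ENSG00000100625) maps to chromosome 14 from 60709528 to 60724348 (minus strand, GRCh38, GENCODE v29). In Panc10.05 it was at 40.3 and 35.0 CPM in NC, 25.4 and 24.7 CPM under P1-a2 and 42.4 and 40.5 CPM under P2-a8. In BxPC3 it was at 45.8 and 48.9 CPM in NC, 28.6 and 29.3 CPM under P1-a2 and 43.4 and 43.3 CPM under P2-a8. Both P1-a2 libraries lay below every other library of their line. With P1-a2 the log2 fold change of SIX4 in Panc10.05 was -0.59 (SE 0.08, adjusted p 1.67e-08), and in BxPC3 the value was -0.71 (SE 0.07, adjusted p 2.17e-05). P2-a8 against NC missed the threshold in both lines, at 0.14 (adjusted p 0.146) in Panc10.05 and -0.13 (adjusted p 0.329) in BxPC3, although in Panc10.05 P2-a8 gave more HNF4A than P1-a2 did. Without NC replicate 1 the Panc10.05 value became 0.25 with an adjusted p of 0.0233, a rise. P1-a2 was below P2-a8 by -0.73 (adjusted p 2.7e-10) in Panc10.05 and -0.58 (adjusted p 0.000254) in BxPC3.

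In AsPC-1, repression of HNF4A gave the opposite order for SIX4. The libraries with sgNC had 5.86 and 6.26 CPM. Those with sgP1 had 9.13 and 8.04 CPM (sgP1E) and 9.14 and 7.39 CPM (sgP1J), and those with sgP2 had 9.20 and 9.57 CPM (sgP2D) and 8.93 and 10.3 CPM (sgP2G). With sgDual they had 14.4 and 15.9 CPM (sgDual2) and 14 and 15.5 CPM (sgDual3). Every library with a targeting guide was above both controls, and all 4 with sgDual were above all others. The log2 fold change was 1.30 for sgDual (SE 0.12, adjusted p 1.85e-06). It was 0.65 for sgP2 (SE 0.11, adjusted p 0.00709), which missed the threshold without either sgNC library (adjusted p 0.13 and 0.0856), and 0.48 for sgP1 (SE 0.11, adjusted p 0.103), which DESeq2 called (adjusted p 0.0193). The sgDual libraries were also above those with sgP1 (0.83, SE 0.09, adjusted p 6.85e-06) and sgP2 (0.65, SE 0.09, adjusted p 2.87e-05). The promoter of SIX4 is shown because of this pattern. It is the RefSeq window of 250 bases before to 50 bases after the start, on GRCh38.p14 at chr14:60724302-60724601, minus strand, and it holds none of the 3 motifs searched, so that no letters are in capitals.

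SIX4: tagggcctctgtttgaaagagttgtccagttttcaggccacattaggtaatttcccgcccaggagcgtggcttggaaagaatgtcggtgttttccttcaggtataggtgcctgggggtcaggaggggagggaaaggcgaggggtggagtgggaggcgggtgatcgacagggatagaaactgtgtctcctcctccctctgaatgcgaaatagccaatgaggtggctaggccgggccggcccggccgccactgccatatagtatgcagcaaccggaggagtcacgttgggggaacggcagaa

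The motifs were the E-box CAGGTG that ZEB and SNAI factors bind, the TEAD element GGAATG and the HNF4 element CAAAGTCCA, searched on both strands. The E-box occurred in 20.6% of the 35116 promoter windows of the table, the TEAD element in 14% and the HNF4 element in 0.384%. The table held 13 windows for 6 of the 9 genes. The E-box was in 4 of them (1 of 2 for GLI2, 2 of 7 for ZEB1 and that of VGLL1), the TEAD element in 2 (ZEB1 and VGLL1) and the HNF4 element in 0. TP63, SIX4 and VIM had 1 window each and none of the motifs. GENCODE lists 8 transcript starts for TP63, 3 for SIX4 and 9 for VIM, so other starts may lie outside the sequence searched. A match is a description of letters, not of binding.

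Other genes of its network, in which EYA proteins act as coactivators and DACH proteins as corepressors, were read beside it. Of 10 genes in the list, 4 could be tested in Panc10.05, where 0 rose and 3 fell under P1-a2. Of all genes tested there, 62.0% were called and 30.5% were lower. The median log2 fold change of the 4 was -0.63, against 0.023 over all genes. EYA1 went from 2.86 to 0.569 CPM (-2.34, adjusted p 1.85e-10), SIX5 from 17.8 to 9.50 CPM (-0.90, adjusted p 6.01e-10) and EYA3 from 56.1 to 43.7 CPM (-0.36, adjusted p 4.02e-05). In BxPC3 0 rose and 5 fell of 7 (median -0.42), where 14.9% of all genes were lower and the median over all genes was -0.012. EYA2 went from 48.7 to 24.6 CPM (-0.98, adjusted p 6.89e-06), DACH1 from 14.5 to 7.06 CPM (-1.04, adjusted p 0.0102) and EYA1 from 7.92 to 4.72 CPM (-0.74, adjusted p 0.00481). In AsPC-1 with sgDual 1 rose and 1 fell of 3 (median -0.25), where 17.8% of all genes were called in each direction and the median over all genes was 0.0012. The shares and medians over all genes in these 3 comparisons hold for each list that follows, and with shares of this size nothing particular to a list is read from its count. SIX5 rose from 14 to 21.0 CPM (0.58, adjusted p 0.000748), while EYA3 fell from 31.2 to 24.4 CPM (-0.35, adjusted p 0.00825). SIX5 thus had the direction of SIX4 in Panc10.05 under P1-a2 and in AsPC-1 with sgDual, and EYA3 fell in both.

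ZEB1 rose under P1-a2 in both induced lines, from very different starting levels. ZEB1 (ENSG00000148516) maps to chromosome 10 from 31318495 to 31529814 (plus strand). In Panc10.05 it was at 9.87 and 10.2 CPM in NC, 16.4 and 15.7 CPM under P1-a2 and 9.17 and 8.40 CPM under P2-a8. The log2 fold change of P1-a2 was 0.68 (SE 0.10, adjusted p 2.6e-07), and that of P2-a8 was -0.19 (adjusted p 0.161). In BxPC3 it was at 0.112 and 0.328 CPM in NC, which is 3 and 12 counts, at 1.63 and 1.87 CPM under P1-a2 (52 and 69 counts) and at 0.543 and 0.521 CPM under P2-a8. Here P1-a2 stood above NC by 2.89 (SE 0.42, adjusted p 0.000336). Without NC replicate 2, which leaves a control of 3 counts, the value became 3.92. P2-a8 against NC missed the threshold in BxPC3 (1.18, SE 0.49, adjusted p 0.197). P1-a2 was above P2-a8 in both lines, by 0.86 (adjusted p 3.5e-09) in Panc10.05 and 1.71 (adjusted p 0.00608) in BxPC3. Even after its rise in BxPC3, ZEB1 stayed below 2 CPM.

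In AsPC-1 ZEB1 ran from 40.6 to 42.9 CPM with sgNC, from 29.9 to 55.8 CPM with sgP1, from 41.8 to 65.3 CPM with sgP2 and from 43.95 to 52.4 CPM with sgDual. The groups of single targets overlapped the control, while all 4 sgDual libraries lay above both sgNC libraries. No comparison with sgNC passed in the fit over all groups (adjusted p 0.995, 0.425 and 0.45). In a fit of the 2 groups alone sgDual against sgNC passed (0.21, adjusted p 0.0481). Without guide sgP1E, sgDual (0.53, adjusted p 0.0119) and sgP2 (0.65, adjusted p 0.0104) were above sgP1. Within sgP1, guide sgP1E (55.8 and 45.2 CPM) was above sgP1J (37.7 and 29.9 CPM) by 0.58 (SE 0.16, adjusted p 0.0339). Exons of ZEB1 overlap those of the antisense gene ZEB1-AS1, which had up to 482 counts in a Panc10.05 library and 88 in a BxPC3 library. The strand setting of the counting is not given, so reads of the pair cannot be told apart. ZEB1-AS1 rose under P1-a2 in Panc10.05 (0.44, adjusted p 0.00116) and had 0.41 in BxPC3 (adjusted p 0.161). Of 7 RefSeq start windows of ZEB1, the one at chr10:31318966-31319265 (plus strand) is shown because it holds 3 copies of the E-box that ZEB1 and SNAI2 themselves bind. With the start counted as 0, they begin at -242, -85 and 33, and capitals mark them on either strand.

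ZEB1: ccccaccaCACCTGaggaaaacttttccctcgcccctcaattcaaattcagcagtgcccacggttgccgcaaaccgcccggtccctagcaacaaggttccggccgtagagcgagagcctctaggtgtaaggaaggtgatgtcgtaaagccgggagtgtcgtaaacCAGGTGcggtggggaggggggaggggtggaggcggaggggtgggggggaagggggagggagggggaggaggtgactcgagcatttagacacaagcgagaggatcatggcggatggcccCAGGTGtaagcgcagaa

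SNAI2 rose in Panc10.05 with either isoform and, in the fit without a replicate block, passed no test between groups in the other lines. SNAI2 (ENSG00000019549) maps to chromosome 8 from 48917604 to 48921740 (minus strand). In Panc10.05 it was at 26.4 and 27.8 CPM in NC, 87.2 and 76.5 CPM under P1-a2 and 39.2 and 36.7 CPM under P2-a8, with no overlap between the 3 groups. With P1-a2 the rise was 3.02-fold (log2 fold change 1.596, SE 0.07, adjusted p 4.78e-22), and with P2-a8 it was 0.49 on the log2 scale (SE 0.08, adjusted p 9.03e-07). P1-a2 was above P2-a8 by 1.11 (adjusted p 1.68e-16). In BxPC3 SNAI2 was already high, at 85.7 and 86.2 CPM in NC, and changed by -0.13 under P1-a2 (adjusted p 0.137) and 0.02 under P2-a8 (adjusted p 0.897). In AsPC-1 it ran from 24.1 to 48.2 CPM over all 14 libraries, and none of its group comparisons passed.

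The other EMT transcription factors and the genes they act on moved in both directions. Of 12 other EMT factors 5 were tested in Panc10.05, with 1 higher and 3 lower under P1-a2 (median -0.22). In BxPC3 7 were tested, with 3 higher and 1 lower (median -0.26), and in AsPC-1 5, with 1 higher and 0 lower with sgDual (median 0.28). SNAI1, the Snail repressor, rose under P1-a2 from 4.57 to 8.23 CPM in Panc10.05 (0.86, adjusted p 9.45e-07) and from 0.865 to 1.88 CPM in BxPC3 (1.12, adjusted p 0.0362). FOXQ1, a forkhead factor, fell under P1-a2 from 16.4 to 4.59 CPM in Panc10.05 (-1.83, adjusted p 4.66e-17) and from 146 to 74.5 CPM in BxPC3 (-0.97, adjusted p 0.000275). With sgDual FOXQ1 rose from 6.10 to 39.4 CPM in AsPC-1 (2.69, adjusted p 0.0186). SOX9 fell in Panc10.05 (-0.22, adjusted p 0.0168) and FOXC2 rose in BxPC3 (0.72, adjusted p 0.0359). All 24 genes of epithelial junctions and splicing were tested in the induced lines, with 11 higher and 9 lower in Panc10.05 (median 0.0155, where 62.0% of all genes were called) and 8 higher and 5 lower in BxPC3 (median 0.066, where 32.0% were). In AsPC-1 6 rose and 5 fell of 22 (median 0.10, where 35.6% of all genes were called). MARVELD3, a tight junction protein, rose from 15.2 to 43.4 CPM in Panc10.05 (1.51) and from 18.8 to 50.5 CPM in BxPC3 (1.43) under P1-a2. In Panc10.05 the epithelial factor GRHL1 rose from 11.6 to 24.8 CPM and the tight junction gene TJP3 from 18.8 to 36.7 CPM, and in BxPC3 the polarity gene CRB3 rose from 12.2 to 26.9 CPM and the membrane protease gene PRSS8 from 86.6 to 141 CPM. CDH1, E-cadherin, which was chosen after its values were seen, fell in Panc10.05 from 153 to 100.3 CPM (-0.61, adjusted p 7.17e-11) and rose in BxPC3 from 463 to 583 CPM (0.33, adjusted p 0.00044). With sgDual PRSS8 fell (-1.97, adjusted p 0.00898), while the claudin gene CLDN3 (1.47, adjusted p 0.0144) and GRHL1 (1.38, adjusted p 0.000297) rose.

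VIM and SPOCK1, the structural and secreted members, fell in Panc10.05. VIM (ENSG00000026025) maps to chromosome 10 from 17228259 to 17237593 (plus strand). In Panc10.05 it was low, at 3.51 and 5.24 CPM in NC, 1.44 and 1.20 CPM under P1-a2 and 1.77 and 2.42 CPM under P2-a8. Both isoform groups lay below NC. On the log2 scale P1-a2 gave -1.73 (SE 0.22, adjusted p 7.81e-09), while P2-a8 gave -1.07 (SE 0.21, adjusted p 3.93e-05). P1-a2 against P2-a8 (-0.66, adjusted p 0.0211) missed the threshold in DESeq2 (adjusted p 0.0977) and without P1-a2 replicate 2 (0.147) or P2-a8 replicate 2 (0.203). VIM exons overlap those of the antisense gene VIM-AS1. In Panc10.05 VIM-AS1 had 25 to 81 counts where VIM had 55 to 181, and it fell as well (-1.49, adjusted p 8.26e-06 for P1-a2), so the gene that lost reads cannot be told apart.

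In BxPC3 VIM was higher with either isoform, at 36.6 and 48.3 CPM in NC, 82.9 and 110 CPM under P1-a2 and 67.0 and 90.1 CPM under P2-a8. Both isoform groups lay above NC. P1-a2 against NC gave 1.18 (SE 0.25, adjusted p 0.0302), a call that was lost with no filter on low counts (adjusted p 0.126) and when any 1 of the 4 libraries was left out: NC replicate 1 (0.119) or 2 (0.0583), or P1-a2 replicate 1 (0.0548) or 2 (0.12). P2-a8 against NC gave 0.88 (SE 0.25, adjusted p 0.161), which DESeq2 called (adjusted p 0.0378). Beside this, the summed level of the 7 fibroblast markers was 15 to 15.8 CPM in NC, 19.95 to 20.8 CPM under P1-a2 and 20.03 to 21.2 CPM under P2-a8. Among them LUM averaged 1.11 CPM in NC, 6.26 under P1-a2 and 6.21 under P2-a8, while COL1A1 averaged 11.6, 11.2 and 11.9 CPM and COL1A2, DCN and PDGFRB stayed below 1 CPM. The part of these markers in the VIM result was not tested.

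In AsPC-1 VIM was at 4122 and 3484 CPM with sgNC and ran from 3233 to 4697 CPM with sgP1, from 3871 to 4526 CPM with sgP2 and from 3002 to 3206 CPM with sgDual. All 4 sgDual libraries lay below every other library. The log2 fold change of sgDual was -0.28 against sgNC (SE 0.12, adjusted p 0.0765, and 0.00664 in a fit of these 2 groups alone), -0.33 against sgP1 (SE 0.10, adjusted p 0.0134) and -0.42 against sgP2 (SE 0.10, adjusted p 0.00241). The second of these missed the threshold without guide sgP1E (-0.16, adjusted p 0.16), sgDual2 (0.0652) or sgDual3 (0.102). LUM, the fibroblast marker found in this line, averaged 171 CPM with sgNC and 285 CPM with sgDual, and its part in these results was not tested.

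SPOCK1 had the largest change of the 9 genes. SPOCK1 (ENSG00000152377) maps to chromosome 5 from 136975298 to 137598379 (minus strand). In Panc10.05 it went from 16.2 and 19.1 CPM in NC (659 and 673 counts) to 0.385 and 0.370 CPM under P1-a2 (15 to 17 counts), a 46.3-fold fall (log2 fold change -5.53, SE 0.19, adjusted p 1.66e-26). Under P2-a8 it was at 0.876 and 0.958 CPM, 19.2-fold below NC. P1-a2 was below P2-a8 by -1.27 (SE 0.31, adjusted p 0.000665). In BxPC3 the same gene was not lower with HNF4A induced, at 3.90 and 5.22 CPM in NC, 5.33 and 7.89 CPM under P1-a2 and 5.38 and 6.03 CPM under P2-a8 (0.53, adjusted p 0.076, and 0.31, adjusted p 0.466). The first of these passed with no filter on low counts (0.54, adjusted p 0.00895), and without P1-a2 replicate 1 it became 0.79 with an adjusted p of 0.0137. In AsPC-1 it had 5 counts at most in a library. Of 6 related genes of the SPARC and testican family 2 were tested in Panc10.05, with 0 higher and 1 lower (median -1.30). FSTL1, a secreted follistatin-like protein, fell from 73.7 to 18.6 CPM (-1.98, adjusted p 3.59e-25). In BxPC3 edgeR called 0 of 3 (1 at an unadjusted p under 0.05, median -0.345), and in AsPC-1 0 of 2 (1 at an unadjusted p under 0.05, median 0.54).

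Of the other mesenchymal structural genes, 16 of 25 were tested in Panc10.05, and 3 rose and 8 fell under P1-a2 (median -0.49). CAV1, the main protein of caveolae, fell from 403 to 133 CPM (-1.60) and fibronectin FN1 from 95.5 to 40.6 CPM (-1.23, adjusted p 0.0044), while ACTA2, smooth muscle actin, rose from 0.896 to 2.75 CPM (1.63). In BxPC3 5 rose and 4 fell of 20 (median 0.27). CDH2, N-cadherin, rose from 1.74 to 4.89 CPM (1.49, adjusted p 9.74e-05) and CDH11 from 34.8 to 79.4 CPM (1.19, adjusted p 1.56e-06), and TAGLN, an actin-binding protein of smooth muscle, rose from 3.44 to 9.46 CPM (1.43, adjusted p 0.026). In AsPC-1 4 rose and 2 fell of 16 with sgDual (median 0.41). TAGLN rose from 1.53 to 3.53 CPM (1.20, adjusted p 0.00199), while NT5E (CD73) fell from 322 to 130 CPM (-1.31) and TGFBI from 682 to 363 CPM (-0.91). Of 9 intermediate filament genes other than keratins, 1 rose and 3 fell of 7 in Panc10.05 (median -0.20), 0 rose and 2 fell of 5 in BxPC3 (median -0.23), and 2 rose and 3 fell of 6 in AsPC-1 (median -0.42). LMNB1, a nuclear lamin, fell under P1-a2 in Panc10.05 (-1.24) and BxPC3 (-0.44). LMNB2 fell in Panc10.05 (-0.76) and with sgDual in AsPC-1 (-0.76), and synemin SYNM rose in both (0.56 and 1.47). Nestin NES fell in BxPC3 (-0.61) and rose in AsPC-1 (0.80).

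VGLL1 separated the isoforms in Panc10.05 more than any other of the genes. VGLL1 (ENSG00000102243) maps to chromosome X from 136532152 to 136556807 (plus strand). It was at 0.624 and 0.551 CPM in NC, 0.282 and 0.196 CPM under P1-a2 (11 and 9 counts) and 3.70 and 5.47 CPM under P2-a8 (173 to 194 counts). It rose 7.65-fold under P2-a8 (log2 fold change 2.94, SE 0.26, adjusted p 8.24e-13). Under P1-a2 it fell (-1.31, SE 0.42, adjusted p 0.00594). Without P1-a2 replicate 2 this call was lost (-1.05, adjusted p 0.0743). P1-a2 was 19.0-fold below P2-a8 (-4.25, SE 0.30, adjusted p 1.18e-15). In BxPC3 it was at 2.05 and 2.24 CPM in NC, 1.57 and 1.14 CPM under P1-a2 and 1.49 and 1.164 CPM under P2-a8 (-0.68, adjusted p 0.0698, and -0.69, adjusted p 0.156), and the isoforms gave like values (0.02, SE 0.27, adjusted p 0.974). In AsPC-1 it had 0 counts in 12 libraries and 1 count in 2. The promoter window of VGLL1 at chrX:136531965-136532264 (plus strand) is shown because VGLL1 partners TEAD factors and the window holds a TEAD element on the minus strand at -157 to -152 and an E-box at -149 to -144, which do not overlap. Both are in capitals.

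VGLL1: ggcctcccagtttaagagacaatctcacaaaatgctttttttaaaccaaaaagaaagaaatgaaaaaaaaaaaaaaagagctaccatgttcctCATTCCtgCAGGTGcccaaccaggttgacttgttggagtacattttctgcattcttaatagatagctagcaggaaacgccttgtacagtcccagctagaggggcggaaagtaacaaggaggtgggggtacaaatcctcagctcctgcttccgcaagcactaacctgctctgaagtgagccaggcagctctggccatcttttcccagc

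Among 11 other VGLL, TEAD and YAP-pathway genes, 3 rose and 1 fell of 9 in Panc10.05 under P1-a2 (median 0.13), 1 rose and 2 fell of 10 in BxPC3 (median -0.034), and 3 rose and 2 fell of 10 in AsPC-1 with sgDual (median 0.18). WWTR1, which encodes the TEAD coactivator TAZ, fell under P1-a2 from 117 to 31.8 CPM in Panc10.05 (-1.89, adjusted p 3.64e-26) and from 128 to 97.8 CPM in BxPC3 (-0.39, adjusted p 0.0028). In Panc10.05 TEAD3 rose from 51.6 to 81.1 CPM (0.65, adjusted p 2.25e-11) and TEAD1 from 253 to 336 CPM (0.41, adjusted p 2.43e-07). In BxPC3 VGLL4 fell (-0.28, adjusted p 0.0127) and TEAD4 rose (0.19, adjusted p 0.0388). In AsPC-1 TEAD2 rose (0.91), and TEAD4 (-0.84) and TEAD3 (-0.52) fell.

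HMGA2 fell by about the same factor in all 4 sgDual libraries of AsPC-1. HMGA2 (ENSG00000149948) maps to chromosome 12 from 65824131 to 65966295 (plus strand). It was at 268 and 230 CPM with sgNC, 170 to 241 CPM with sgP1 and 203 to 243 CPM with sgP2. With sgDual it was at 120 and 112 CPM (sgDual2) and 142 and 130 CPM (sgDual3), below all other libraries. The log2 fold change of sgDual was -0.98 against sgNC (SE 0.13, adjusted p 4.67e-05), -0.70 against sgP1 (SE 0.11, adjusted p 0.000161) and -0.84 against sgP2 (SE 0.11, adjusted p 1.82e-05). In Panc10.05 it was at 34.5 and 30.8 CPM in NC, 28.96 and 25.9 CPM under P1-a2 and 45.1 and 43.5 CPM under P2-a8. It rose under P2-a8 (0.44, SE 0.08, adjusted p 7.79e-06). The fall under P1-a2 (-0.25, SE 0.08, adjusted p 0.00527) missed the threshold without NC replicate 1 (adjusted p 0.101) or P1-a2 replicate 2 (0.129).

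In BxPC3 HMGA2 had the opposite order between the isoforms. It was at 308 and 384 CPM in NC, 394 and 414 CPM under P1-a2 and 280 and 315 CPM under P2-a8. Neither isoform passed against NC (0.22, adjusted p 0.135, and -0.22, adjusted p 0.277), but both did with no filter on low counts (0.23, adjusted p 0.000666, and -0.21, adjusted p 0.00644). Without NC replicate 2 the first became 0.39 (adjusted p 0.00779), and without NC replicate 1 the second became -0.38 (adjusted p 0.0263). P1-a2 was above P2-a8 by 0.44 (SE 0.10, adjusted p 0.0163), which missed the threshold without P1-a2 replicate 1 (0.0645) or 2 (0.105) or P2-a8 replicate 1 (0.0579). Another list held 8 genes related to HMGA2 or to let-7, which holds HMGA2 RNA down. It does not separate genes that act with let-7 from those that act against it. In Panc10.05 1 rose and 0 fell of 4 (median 0.019), and in AsPC-1 0 rose and 2 fell of 6 (median -0.15). In BxPC3 edgeR called 0 of 5 (0 at an unadjusted p under 0.05, median -0.035). IGF2BP2, an RNA-binding protein, fell from 77.6 to 54.8 CPM with sgDual (-0.50, adjusted p 0.000323), as did DICER1 (-0.21, adjusted p 0.0392). IGF2BP3 rose in Panc10.05 (0.26, adjusted p 0.000385).

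GLI2 fell in BxPC3 with either isoform. GLI2 (ENSG00000074047) maps to chromosome 2 from 120735623 to 120992653 (plus strand). In BxPC3 it was at 4.98 and 5.54 CPM in NC, 2.57 and 2.54 CPM under P1-a2 and 3.23 and 2.94 CPM under P2-a8. All 4 libraries with an isoform were below both controls. P1-a2 gave -1.04 (SE 0.17, adjusted p 0.000811) and P2-a8 -0.77 (SE 0.17, adjusted p 0.0182). The second was lost in DESeq2 (adjusted p 0.0519) and without NC replicate 1 (0.0517), NC replicate 2 (0.159) or P2-a8 replicate 2 (0.101). In Panc10.05 GLI2 had 9 to 33 counts. It was at 0.216 and 0.435 CPM in NC, 0.539 and 0.283 CPM under P1-a2 and 0.684 and 0.930 CPM under P2-a8, and its rise under P2-a8 (1.32, SE 0.43, adjusted p 0.0107) was lost in DESeq2 (0.119) and without NC replicate 1 (0.167) or P2-a8 replicate 2 (0.101). P1-a2 against P2-a8 (-0.98, adjusted p 0.0439) was lost in several alternatives, with adjusted p up to 0.373 without P1-a2 replicate 2, and at 0.246 without P2-a8 replicate 2 and 0.0509 without P2-a8 replicate 1. In AsPC-1 GLI2 ran from 21.9 to 43.4 CPM, and no comparison between groups passed in the fit without a replicate block.

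Of the other 16 Hedgehog pathway genes, 1 rose and 2 fell of 8 in Panc10.05 (median -0.19), 0 rose and 4 fell of 11 in BxPC3 under P1-a2 (median -0.39), and 6 rose and 1 fell of 11 in AsPC-1 with sgDual (median 0.59). Of all genes tested, 62.0% were called in Panc10.05, 14.9% were lower in BxPC3 and 17.8% were called in each direction in AsPC-1. Nothing particular to the pathway is read from these counts. GLI3, a related transcription factor, fell from 19.8 to 10.9 CPM in BxPC3 (-0.86, adjusted p 0.00184), with the coreceptor BOC (-0.68) and the ciliary regulator KIF7 (-0.51). In Panc10.05 CDON, a coreceptor (-0.95), and the inhibitor SUFU (-0.42) fell. In AsPC-1 the ligand SHH rose from 50.7 to 108 CPM (1.09, adjusted p 3.34e-06), the target and effector GLI1 from 8.88 to 20.3 CPM (1.19, adjusted p 0.0386) and the coreceptor CDON from 6.52 to 13.6 CPM (1.06, adjusted p 0.0213), while GLI2 itself had -0.25 (adjusted p 0.489).

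TP63 was high in BxPC3 and changed little there. TP63 (ENSG00000073282) maps to chromosome 3 from 189631416 to 189897279 (plus strand). In BxPC3 it was at 307 and 303 CPM in NC, 268 and 288 CPM under P1-a2 and 343 and 350 CPM under P2-a8. The groups did not overlap. Against NC neither isoform passed (-0.13, SE 0.05, adjusted p 0.0908, and 0.18, SE 0.05, adjusted p 0.0748), although P1-a2 passed when libraries were scaled by total counts (-0.16, adjusted p 0.0397) and P2-a8 with no filter on low counts (0.19, adjusted p 0.0281). P1-a2 was below P2-a8 by -0.31 (SE 0.05, adjusted p 0.00216). In Panc10.05 TP63 had 1 to 13 counts and was not tested in the fit of that line.

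In AsPC-1 TP63 had 7 counts in each sgNC library (0.222 and 0.225 CPM), and its level differed between the guides aimed at P1. With sgP1E it was at 2.18 and 2.92 CPM (97 to 112 counts), and with sgP1J, aimed at the same promoter, at 0.146 and 0.452 CPM (5 to 14 counts). With sgP2D it was at 0.773 and 0.586 CPM, with sgP2G at 1.35 and 0.923 CPM, with sgDual2 at 1.12 and 1.01 CPM and with sgDual3 at 0.925 and 0.926 CPM. Guides sgP1E and sgP1J differed by 3.09 (SE 0.35, adjusted p 7.27e-05), and 2 of 7 of the genes were called between them, TP63 and ZEB1, where 14.5% of all genes were. HNF4A was at 145 CPM with sgP1E and 114 CPM with sgP1J. A guide and the cells that carry it cannot be told apart. Against sgNC, sgP1 gave 2.68 (SE 0.97, adjusted p 0.389), sgP2 2.01 (adjusted p 0.332) and sgDual 2.14 (adjusted p 0.117). DESeq2 called the first (adjusted p 0.0429) and the last (0.0235), and fits of the 2 groups alone called sgP2 (0.03) and sgDual (0.000282). Without guide sgP1J the first became 3.48 (adjusted p 0.000149), and without guide sgP1E it became 0.38 and did not pass. Without guide sgP1E the sign of sgDual against sgP1 turned, from -0.54 to 1.76 (adjusted p 0.0031). Between sgP2D and sgP2G edgeR called 0 of 7 (1.69% of all genes), with 1 at an unadjusted p under 0.05 (TP63) and 0 called by DESeq2. Between sgDual2 and sgDual3 it called 0 of 7 (0.883%), with 0 at an unadjusted p under 0.05 and 0 by DESeq2.

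**Figure D3:**
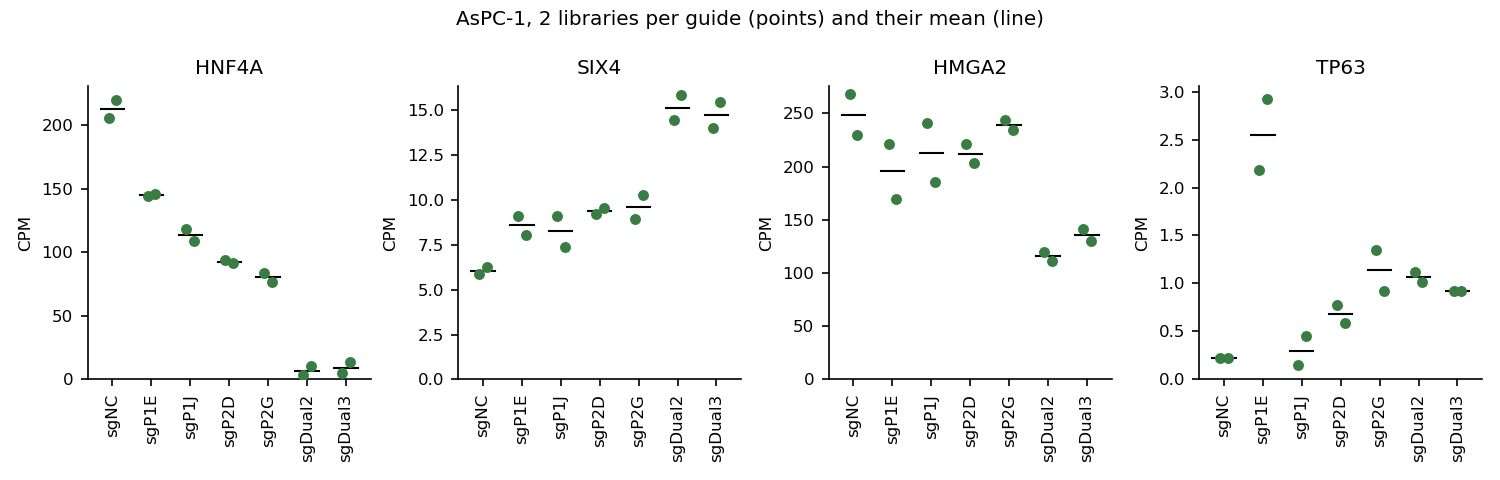
HNF4A, SIX4, HMGA2 and TP63 in AsPC-1 in CPM (y axis, from 0), with 2 libraries per guide as points and their mean as a line. In the sgDual libraries SIX4 lay between 14 and 15.9 CPM and HMGA2 between 112 and 142 CPM, and TP63 averaged 2.55 CPM with sgP1E and 0.299 CPM with sgP1J.

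Genes linked to p63 in squamous and basal epithelium moved in both directions in each line. Of 22 in the list, 4 rose and 9 fell of 16 under P1-a2 in Panc10.05 (median -0.54), where TP63 had at most 13 counts and 62.0% of all genes were called (median 0.023). KRT17 fell from 8.97 to 1.04 CPM (-3.10, adjusted p 6.61e-19), TRIM29 from 14.2 to 2.10 CPM (-2.75, adjusted p 1.89e-20) and COL17A1 from 178 to 64.0 CPM (-1.48, adjusted p 0.000206). KRT17 and KRT14 have near-identical gene copies, so their counts are uncertain. In BxPC3, where TP63 was high, 4 rose and 11 fell of 22 (median -0.26), against 32.0% of all genes called (median -0.012). KRT14, a basal keratin, rose from 74.4 to 133 CPM (0.84, adjusted p 0.00175), and KRT15 (-0.53) and CLCA2 (-0.50) fell. In AsPC-1 with sgDual 6 rose and 1 fell of 17 (median 0.46), against 35.6% of all genes called (median 0.0012). TP63 itself averaged 0.223 CPM with sgNC, 1.07 with sgDual2 and 0.925 with sgDual3 there (2.14, adjusted p 0.117 in edgeR and 0.0235 in DESeq2). TRIM29 rose from 1.23 to 12.7 CPM (3.36, adjusted p 2.55e-05), PTHLH from 6.01 to 49.9 CPM (3.05, adjusted p 9.87e-06) and DSC3, a desmosomal cadherin, from 18.8 to 50.5 CPM (1.43, adjusted p 1.09e-05).

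**Figure D4:**
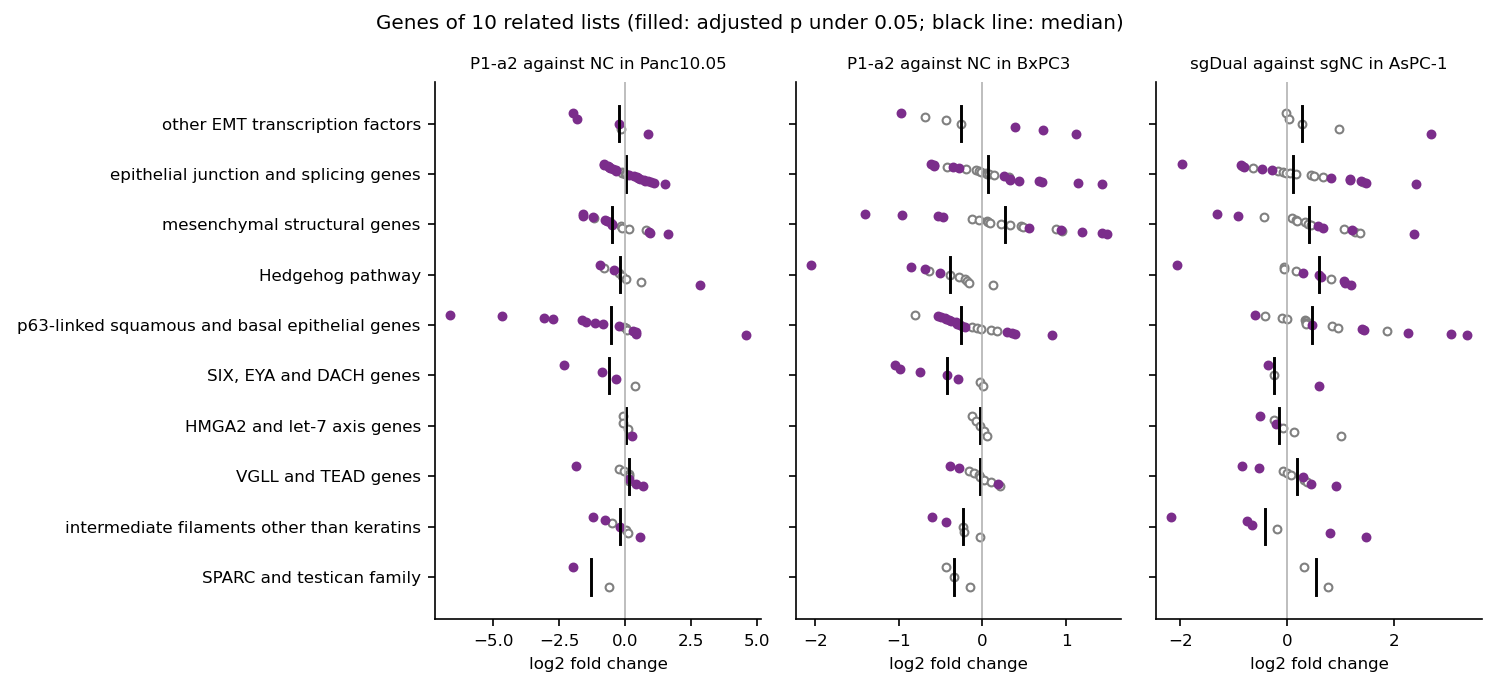
Log2 fold change (x axis) of the tested genes of 10 related lists (y axis) in 3 comparisons, with filled points past an adjusted p of 0.05, open points not, and the median as a black line. For the list with EYA and DACH genes the median was -0.63 in Panc10.05, -0.42 in BxPC3 and -0.25 in AsPC-1.

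Responses to the same isoform were then compared between Panc10.05 and BxPC3 as the difference of their log2 fold changes, Panc10.05 minus BxPC3. Line, dose, control construct and sequencing project changed together here and cannot be told apart. The 9 genes here include TP63, which had 1 to 13 counts in Panc10.05 and passed the joint filter through BxPC3. It was not among the genes that differed. For P1-a2 against NC 6 of 9 genes differed, where 36.4% of all 19372 genes did. SPOCK1 differed by -6.05 (SE 0.31, adjusted p 8.88e-13), VIM by -2.89 (SE 0.51, adjusted p 0.00433), ZEB1 by -2.19 (SE 0.36, adjusted p 3.2e-05) and SNAI2 by 1.73 (SE 0.10, adjusted p 6.86e-12). VIM fell in Panc10.05 and was higher in BxPC3, as described above. SIX4 did not pass (0.13, SE 0.11, adjusted p 0.397). For P2-a8 against NC 7 of 9 differed, where 23.5% of all genes did, with VGLL1 at 3.63 (SE 0.39, adjusted p 3.41e-07) and SPOCK1 at -4.57 (SE 0.28, adjusted p 6.07e-11). The P1-a2 against P2-a8 contrast depended on the line for 5 of 9 genes, where 22.3% of all genes were, among them HMGA2 (-1.13, SE 0.14, adjusted p 7.27e-05) and VGLL1 (-4.25, SE 0.44, adjusted p 2.7e-07).

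**Figure D5:**
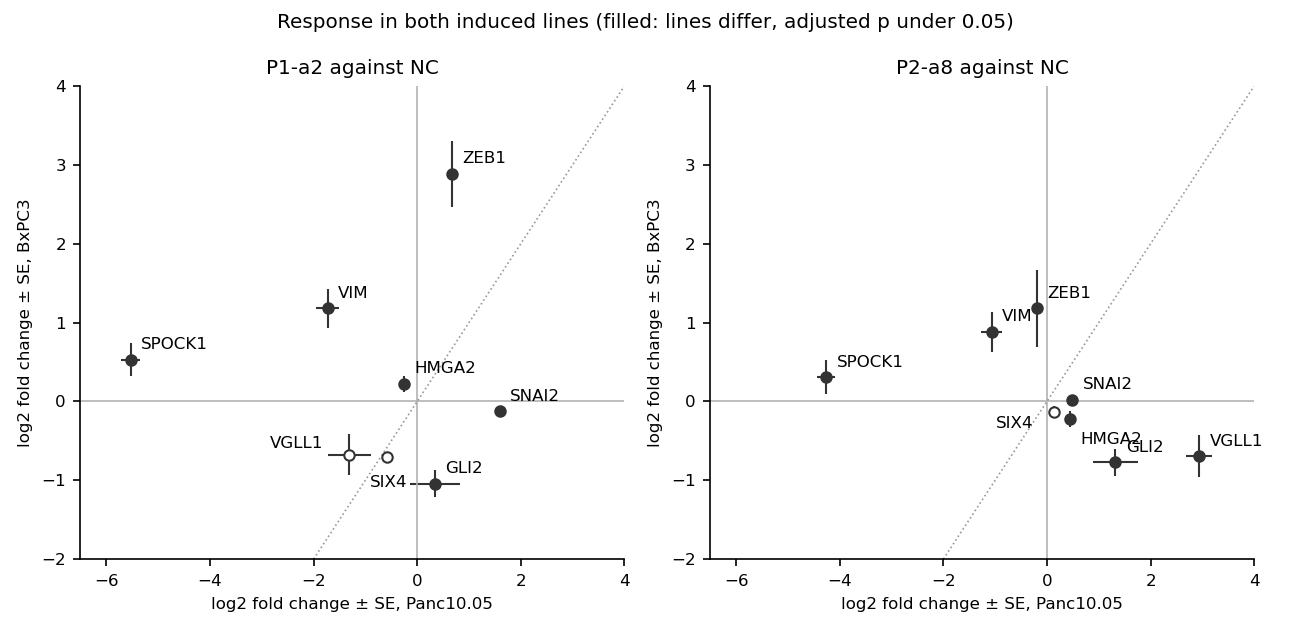
Log2 fold change with its standard error in Panc10.05 (x axis) and BxPC3 (y axis) for P1-a2 and P2-a8 against NC, with filled points where the lines differed past an adjusted p of 0.05 and a dotted line of equal change. SIX4 is an open point in both panels, SPOCK1 and VIM lie left of 0 in Panc10.05 and above 0 in BxPC3. TP63 is not drawn, as it did not pass the filter of Panc10.05.

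Genes whose pattern was most like that of a member were found by Pearson's r of the mean log2 CPM over the 10 groups, centred within each line, among 9311 genes. The 6 members that passed the filter in all 3 tables were used, and the groups share control libraries, so r is a description. For SIX4 they were TMEM185A (0.958) and HMGN3 (0.955), for ZEB1 WDR1 and ATP6V1D (0.979 each) and for SNAI2 ZFYVE19 (0.986) and SLC4A2 (0.983). For HMGA2 they were FHOD1 (0.959) and PAQR4 (0.95), for VIM AP2S1 (0.947) and CAPZB (0.945) and for GLI2 C1RL-AS1 (0.916) and PANK1 (0.913). With HNF4A itself r was -0.566 for SIX4, 0.592 for HMGA2, 0.425 for SNAI2, 0.21 for ZEB1, 0.142 for GLI2 and -0.032 for VIM.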

How the data were processed

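Poly(A) RNA was sequenced from 26 libraries with a directional paired-end kit, per the labels' protocols. The authors deposited raw read counts per Ensembl gene, 1 table per line. The submitters' processing notes name GRCh38, cutadapt 1.16, STAR 2.7.9a, featureCounts 1.6.3 and DESeq2 1.36.0; annotation and strand setting are not given in the sources used here. Groups were read from the labels, and 0 columns belonged to other samples. Each table was fitted over all its groups with edgeR 4.0.16 (R 4.3.3, limma 3.58.1): filterByExpr, TMM scaling, robust quasi-likelihood tests, and Benjamini-Hochberg adjustment over all genes tested. A call is an adjusted p under 0.05. SE is the absolute log2 fold change over the square root of F. Between-line differences came from a joint fit of 12 Panc10.05 and BxPC3 libraries, and guides from a fit with 7 groups. The fit code was run on counts simulated with the same dispersion for every gene, a simpler setting than these data. That run says nothing about the error rate of the calls here. Floors of 3 counts cover counting error only. Replicate pairs differed by more than sampling noise (chi-square per degree of freedom 5.08 to 24.073).

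Symbols and loci came from GENCODE 29. Promoter windows of 6 members came from RefSeq (GRCh38.p14); for SNAI2, HMGA2 and SPOCK1 none was used here. The members, lists and tests were chosen with earlier results of these data known. All 9 members are described; of each list, up to 3 called genes per line are named, by largest absolute log2 fold change, with a mean of at least 1 CPM and groups that do not overlap. Alternatives were RLE or total-count scaling, no filter, DESeq2 1.42.0, fits of the groups compared alone, an added fold limit, a replicate block, and leaving out each library or guide. List genes were not rerun under them. Some list genes are not reported here. Tables were made with Python 3.11.15, numpy 2.4.6 and pandas 2.3.3, and figures with matplotlib 3.10.9.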

Additional observations from a re-analysis of the deposited data

Results flagged for a closer look

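For 18 gene and comparison pairs, the response differed between Panc10.05 and BxPC3 past an adjusted p of 0.05 in the edgeR joint fit. Values are Panc10.05 minus BxPC3 on the log2 scale, with 2 libraries per group. Line, doxycycline dose, control construct and sequencing project cannot be told apart in them.

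For P1-a2 against NC the difference was 1.398 for GLI2, -2.19 for ZEB1, 1.73 for SNAI2, -0.47 for HMGA2, -2.89 for VIM and -6.05 for SPOCK1. GLI2 missed the threshold without Panc10.05 P1-a2 replicate 1 (adjusted p 0.272), Panc10.05 NC replicate 1 (0.187) or BxPC3 NC replicate 2 (0.0593). HMGA2 missed it without Panc10.05 NC replicate 1 (0.0875), Panc10.05 P1-a2 replicate 2 (0.0629) or BxPC3 P1-a2 replicate 2 (0.0852).

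For P2-a8 against NC it was 2.09 for GLI2, -1.35 for ZEB1, 0.47 for SNAI2, 0.66 for HMGA2, 3.63 for VGLL1, -1.95 for VIM and -4.57 for SPOCK1. Leaving out 1 library took the adjusted p of ZEB1 up to 0.197 (without BxPC3 NC replicate 1) and that of VIM up to 0.123 (without Panc10.05 P2-a8 replicate 1). Without BxPC3 NC replicate 2, which leaves a control of 3 counts for ZEB1, the ZEB1 differences became -3.26 for P1-a2 and -2.42 for P2-a8.

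For P1-a2 against P2-a8 it was -0.84 for ZEB1, 1.27 for SNAI2, -1.13 for HMGA2, -4.25 for VGLL1 and -1.48 for SPOCK1. The ZEB1 value missed the threshold with no filter (adjusted p 0.0691), in DESeq2 (0.0808) and without any 1 of 6 libraries, up to 0.154 without BxPC3 P1-a2 replicate 2.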

How the results depend on the processing

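Of 1611 values under alternative settings, 1512 kept their side of the threshold, 41 newly passed it and 56 no longer passed it. The other 2 reversed, that is, changed sign with a call in the main or the alternative fit. A change of sign with a call in neither fit was counted as kept. With RLE scaling no call changed. Where a call also needed a log2 fold change of at least 1 in either direction, members called numbered 4 (P1-a2 against NC) and 3 (P1-a2 against P2-a8) in Panc10.05. In BxPC3 they numbered 1 (P1-a2 against P2-a8) and 0 (P2-a8 against NC). In AsPC-1 they numbered 0 for sgP2 and 1 for sgDual against sgNC, and 0 for sgDual against sgP1 or sgP2. With no filter on low counts 3 were called for P2-a8 against NC in BxPC3 and 4 for sgP1E against sgP1J. DESeq2 called 2 for sgP1 against sgNC. Fits of the 2 groups alone called 2 for sgP2 and 5 for sgDual against sgNC. Leaving out 1 library gave 0 to 1 calls for P2-a8 against NC in BxPC3 and 0 to 1 for sgP2 against sgNC. Without guide sgP1J 2 were called for sgP1 against sgNC and 1 for sgP2 against sgP1. Without guide sgP1E 2 were called for sgP2 against sgP1, and TP63 reversed to 1.76 for sgDual against sgP1 and 1.63 for sgP2 against sgP1. The cause was not tested. Shares over all genes under these settings are not given here, so nothing particular to the members is read from these counts. TP63 in Panc10.05, and VGLL1 and SPOCK1 in AsPC-1, were too low in counts to be tested in the fits of those lines.

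Replicate numbers are tied to no culture or day in the labels, so samples were not taken as paired in the main fit. Deviations of same-numbered samples correlated at -0.012 to 0.007 in Panc10.05, 0.073 to 0.131 in BxPC3 and 0.077 to 0.339 in AsPC-1. The main fit leaves any difference shared by a number in the spread, so in AsPC-1 and BxPC3 a missed threshold may partly reflect it. With the replicate number as a block, member calls went from 4 to 8 for P1-a2 against NC and from 1 to 4 for P2-a8 against NC in BxPC3. The share over all genes with the block is not given here, so these counts are not read as a result about the members. Over the 3 lines 12 member values newly passed with the block and 1 no longer did, GLI2 for P1-a2 against P2-a8 in Panc10.05 (adjusted p 0.0639). In BxPC3 those that newly passed were TP63 (0.0138), HMGA2 (0.000544), VGLL1 (0.0387) and SPOCK1 (0.00798) for P1-a2 against NC, TP63 (0.00369), HMGA2 (0.00368) and VIM (2.72e-10) for P2-a8 against NC, and SNAI2 (0.0292) and VIM (9.54e-05) for P1-a2 against P2-a8. In AsPC-1 they were VIM for sgDual against sgNC (0.0331), GLI2 for sgDual against sgP1 (-0.26, adjusted p 0.028) and VIM for sgP1E against sgP1J (0.00158).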

Other observations

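In AsPC-1, libraries numbered 1 were above those numbered 2 of the same guide for 7 of 7 guides in GLI2, SNAI2, HMGA2 and VIM. For GLI2 the libraries numbered 1 ran from 30.0 to 43.4 CPM and those numbered 2 from 21.9 to 28.2 CPM, with no overlap (mean log2 ratio 0.509). The mean log2 ratio was 0.456 for SNAI2, 0.197 for HMGA2 and 0.164 for VIM. For SIX4 the library numbered 1 was higher for 2 of 7 guides, for TP63 for 3 and for ZEB1 for 5. The labels do not say what the number stands for.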
